A study of Mus with 4 samples.

Results

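The m6A peaks on the transcripts of 10 factors secreted by brown and white fat were examined in interscapular brown adipose tissue (iBAT) of control mice with floxed *Wtap* (*Wtap* flox/flox) and of mice that lack *Wtap* in brown adipocytes (*Wtap*-BKO). The genes were *Adipoq*, *Lep*, *Retn*, *Nrg4*, *Vegfa*, *Igf1*, *Fgf21*, *Bmp8b*, *Metrnl* and *Angptl4*, and every listed peak that carried one of these gene symbols was taken. They are 10 genes beside the 10105 gene symbols that carried a peak in either genotype, and 8 of the 10 had at least 1 peak. The sources were 4 pooled samples, an m6A immunoprecipitate (IP) and an input from each genotype, and each pool held iBAT RNA of 8 mice on a C57BL/6 background. The control mice carried floxed *Wtap* alleles (exon 4 between loxP sites). The *Wtap*-BKO mice carried the same floxed alleles together with *Ucp1*-iCre, in which Cre is made from the *Ucp1* gene of thermogenic adipocytes, and both groups were 8 weeks old and ate normal chow. Cells of iBAT that do not make *Ucp1*, such as endothelial cells, fibroblasts and macrophages, keep *Wtap* in both genotypes, and the RNA came from whole tissue.

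Fat is an endocrine organ. White adipocytes release hormones such as leptin and adiponectin that report on fat stores and act on liver, muscle and brain, while brown adipocytes release factors often called batokines, which act on nerves, vessels and distant tissues. m6A is a methyl mark on adenosines of mRNA that is placed during transcription by METTL3 and METTL14 with WTAP as an adaptor, is often found in long exons and near stop codons, and affects splicing, decay and translation. In MeRIP-seq, RNA fragments are pulled down with an m6A antibody, and a stretch of transcript that is richer in the IP than in the input is called a peak. Such antibodies also bind m6Am, a related mark on the first transcribed base next to the cap.

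Each listed peak came with a p-value and with the fold enrichment of the IP relative to input, both computed by the authors within 1 genotype. Because fold enrichments of the 2 lists share no known scale, each peak was also placed in its own list by the percent of that list's peaks with a weaker p-value (its p-value rank) and by the percent with a lower fold enrichment (its fold rank). Peaks of the 2 genotypes were taken as overlapping, and each as found in the other genotype, if they had 1 or more exonic bases of the same strand in common. There was 1 pooled IP and 1 pooled input per genotype, so there were no replicates, no difference between genotypes was tested, and the values compare these pools. The read depth is not known from the lists. A missing peak means that none passed the authors' false discovery rate of 0.05, and less RNA of a transcript per cell cannot be told apart from fewer cells that make it. Positions are given on GRCm38. No genome or transcript sequence was used, so motifs, stop codons and untranslated regions were not analysed here.

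Peaks on marker genes of several cell types were counted. A peak needs both RNA of the gene and the mark on it, so these counts cannot check the tissue label. Of all RefSeq protein-coding genes, 44.4% had a peak in either list. Of 13 brown adipocyte markers, all had a peak in *Wtap* flox/flox mice and 12 in *Wtap*-BKO mice, with 36 and 32 peaks. *Ucp1* itself had 1 and 2 peaks. The 9 white adipocyte markers, of which *Lep* is one, had 8 peaks in each genotype, on the same 5 genes. Markers of other cells had more peaks in *Wtap*-BKO mice. The 10 macrophage markers carried 15 control and 24 *Wtap*-BKO peaks, the 10 T and B lymphocyte markers 2 and 5, the 8 endothelial markers 17 and 22, the 8 fibroblast markers 8 and 9, and the 8 skeletal muscle markers 2 and 10.

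The secreted factors carried 16 peaks on 6 genes in *Wtap* flox/flox mice and 21 peaks on 8 genes in *Wtap*-BKO mice. *Adipoq*, *Lep*, *Nrg4*, *Vegfa*, *Metrnl* and *Angptl4*, 6 of the 8, had peaks in both genotypes, as did 73.3% of all gene symbols with a peak. *Retn* and *Igf1* had peaks in *Wtap*-BKO mice only, which was the case for 13.2% of all gene symbols with a peak. None of the 10 had peaks in *Wtap* flox/flox mice only, against 13.5% of all symbols. *Fgf21* and *Bmp8b* had none in either list.

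Of the 16 control peaks, 14 were found in *Wtap*-BKO mice and 2 were not (12.5%, 95% Wilson interval 3.50% to 36.0%). Over all 18400 control peaks, 32.2% were not found. Of the 21 *Wtap*-BKO peaks, 7 were not found in control mice (33.3%, interval 17.2% to 54.6%), close to 32.0% of all 18693 *Wtap*-BKO peaks. The intervals cover counting error only, and each of them holds the share over all peaks. The 2 lost control peaks lay on *Lep* and *Angptl4*. The 7 peaks seen in *Wtap*-BKO mice alone lay on *Igf1* (3 peaks), *Retn*, *Nrg4*, *Metrnl* and *Angptl4* (1 each).

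**Figure D1:**
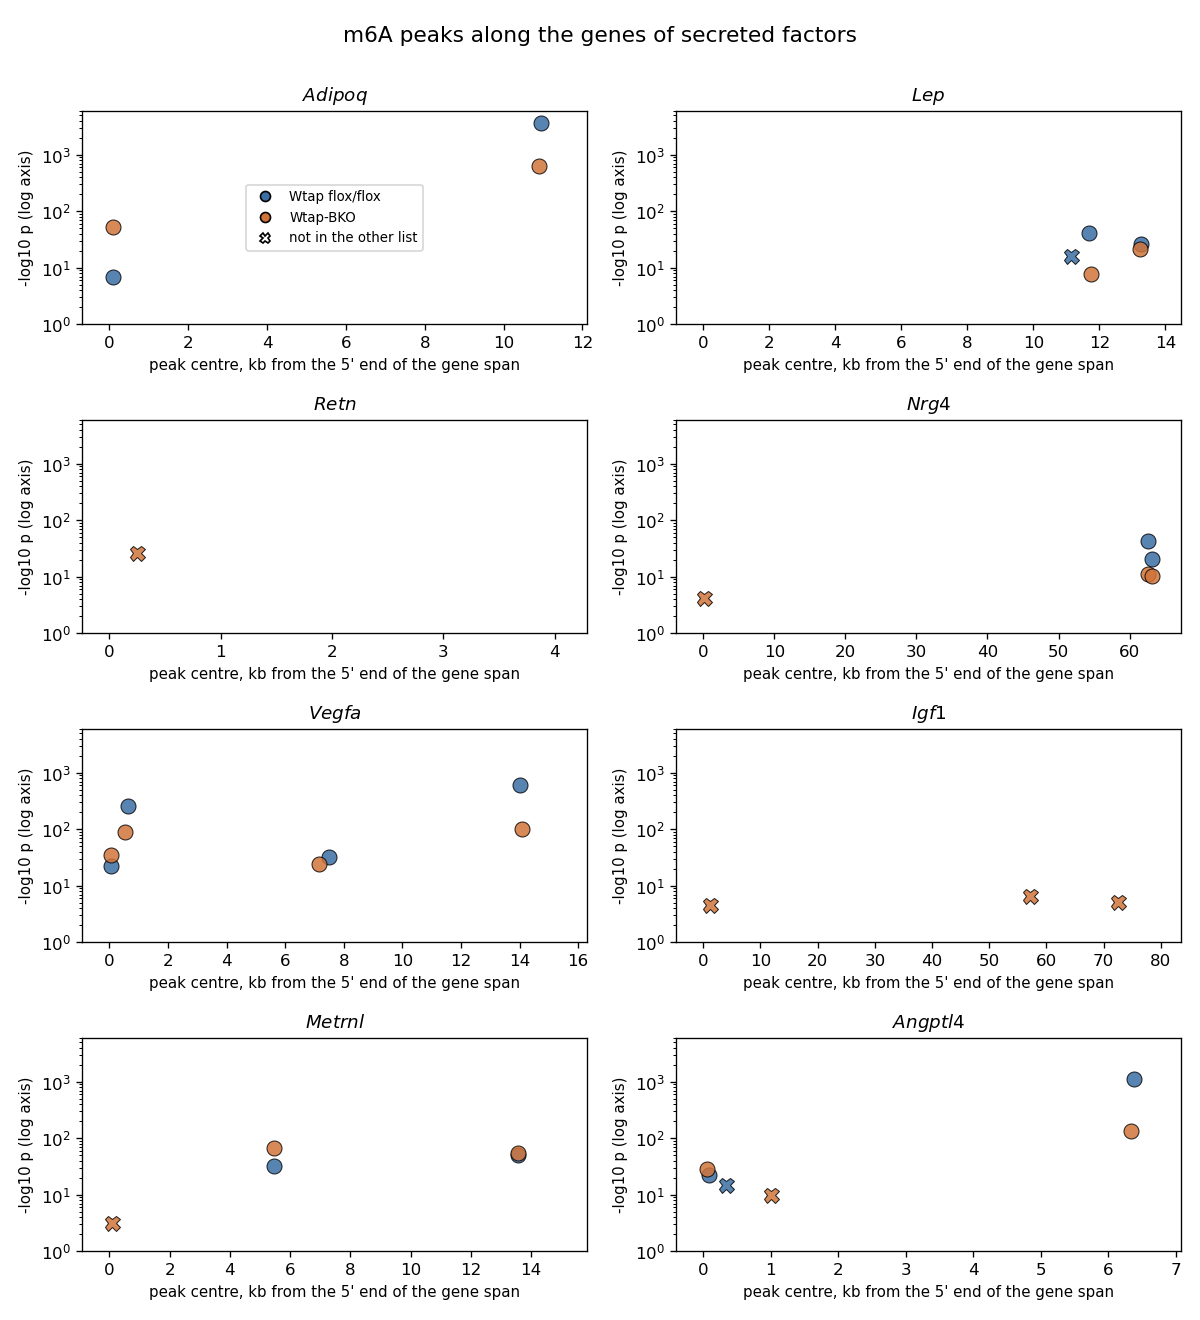
Each point is 1 peak. The horizontal axis gives the distance of its centre from the 5ʹ end of the gene span in kb, and the vertical axis gives -log10 p on a log axis; blue is *Wtap* flox/flox, orange is *Wtap*-BKO, and crosses mark peaks with no peak on them in the other list. The strongest control peaks of *Adipoq*, *Vegfa* and *Angptl4* lie toward the 3ʹ end, and all 4 peaks of *Retn* and *Igf1* are orange crosses.

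*Adipoq* encodes adiponectin, the abundant adipocyte hormone that raises insulin sensitivity. The gene lies on the plus strand at chr16:23146536-23157968, and each genotype had 2 peaks, 1 at either end. At the 5ʹ end, the control peak (chr16:23146565-23146687, 119 exonic bases in 2 blocks) had a log10 p of -6.94 and a fold enrichment of 3.13. The *Wtap*-BKO peak (chr16:23146536-23146716, 177 bases) began at the first base of the gene span and had a log10 p of -52.8 and a fold enrichment of 4.92. Its p-value rank was thus 93.1 in *Wtap*-BKO mice against 42.0 in control mice, the largest upward difference among the 14 overlapping pairs of the secreted factors. At the 3ʹ end, the control peak (chr16:23157118-23157852, 735 bases) had a log10 p of -3680 and a fold enrichment of 5.98. The *Wtap*-BKO peak on it (chr16:23157088-23157764, 677 bases) had a log10 p of -625 and a fold enrichment of 1.93. Both stood near the top of their lists by p-value (a rank of 99.8 in *Wtap*-BKO mice and higher still in control mice), whereas the fold rank was 45.7 in control mice and 7.67 in *Wtap*-BKO mice. So at opposite ends of the same transcript the fold enrichment differed in opposite directions between the genotypes. Peaks covered 854 exonic bases in each genotype, of which 766 were shared.

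*Lep* encodes leptin, the hormone that signals fat stores to the hypothalamus. Its 3 control peaks and 2 *Wtap*-BKO peaks all lay in the last 3 kb of the gene (chr6:29060221-29073876, plus strand). The most 5ʹ control peak (chr6:29071243-29071482, 240 bases) had a log10 p of -15.9 and a fold enrichment of 5.40, and no *Wtap*-BKO peak lay on it. The next control peak (chr6:29071692-29072111, 420 bases) had a log10 p of -41.4 and a fold enrichment of 9.82. On it lay a *Wtap*-BKO peak of 91 bases (chr6:29071931-29072021) with a log10 p of -7.66 and a fold enrichment of 2.49. The p-value rank was 86.0 against 50.8 and the fold rank 66.9 against 18.3, the widest downward differences among the overlapping pairs of these factors. The third control peak (chr6:29073338-29073608, 271 bases, log10 p -26.2, fold 5.84) and its *Wtap*-BKO counterpart (chr6:29073338-29073578, 241 bases, log10 p -21.3, fold 2.48) began at the same base. There the p-value ranks were alike, at 77.5 and 79.9, and the fold ranks were 45.0 and 18.1. Over the gene, peaks covered 931 bases in control and 332 bases in *Wtap*-BKO mice, and every *Wtap*-BKO base was inside a control peak. Among the 6 genes with peaks in both genotypes, *Lep* had the smallest shared part, 35.7% of all bases under its peaks, against a median of 53.0% over 7409 genes.

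*Retn* encodes resistin, a hormone that mouse white adipocytes secrete. It had no control peak and 1 *Wtap*-BKO peak (chr8:3655770-3656111, plus strand, 180 bases in 2 blocks). The peak had a log10 p of -26.4, a fold enrichment of 6.48 and a p-value rank of 84.1, so it was well inside the list. It began at the first base of the gene span (chr8:3655770-3659818). Whether *Retn* transcripts were present in control iBAT was not measured by the peak lists.

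*Nrg4* encodes neuregulin 4, a growth factor of the EGF family that brown fat secretes and that acts through ERBB receptors. The gene is long (chr9:55220222-55283654, minus strand), and both control peaks lay within 1000 bp of its 3ʹ end. The stronger of them (chr9:55220880-55221239, 360 bases) had a log10 p of -43.1 and a fold enrichment of 3.90, and the *Wtap*-BKO peak on it (chr9:55220880-55221120, 241 bases) had -11.0 and 2.86. The second control peak (chr9:55220312-55220581, 270 bases) had a log10 p of -20.4 and a fold enrichment of 2.14, and the *Wtap*-BKO peak (chr9:55220312-55220551, 240 bases) had -10.2 and 1.90. By p-value, these pairs ranked lower in *Wtap*-BKO mice (62.6 against 86.7, and 60.4 against 72.1), while the fold ranks stayed within 2 percentage points of each other. In *Wtap*-BKO mice a further, weak peak of 210 bases in 3 blocks (chr9:55282547-55306214), with a log10 p of -4.23 and a fold enrichment of 3.79, joined the 5ʹ end of the gene to an exon upstream of the RefSeq span, and 11 of its bases were outside that span. The stronger 3ʹ peak shared 153 bases in control and 86 bases in *Wtap*-BKO mice with a control peak of *Fbxo22*, which lies on the opposite strand. Whether the libraries kept strand is not given in the sources used here, so reads at that place may belong to either gene.

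*Vegfa* encodes the vascular endothelial growth factor that drives vessel growth and is made by brown adipocytes. It had the most peaks of the 10 genes, 4 in each genotype, and each of the 4 was found in the other (chr17:46016993-46032377, minus strand). The first peak (chr17:46032249-46032369, 121 bases, 8 bases from the 5ʹ end of the span) had identical borders in both genotypes. Its log10 p was -22.0 in control and -35.5 in *Wtap*-BKO mice, and its fold enrichment was 2.61 and 5.38, the highest ratio of *Wtap*-BKO over control (2.06) among the 14 pairs. The second peak (chr17:46031350-46032129 in control, chr17:46031530-46032129 in *Wtap*-BKO) covered 780 and 600 bases, with a log10 p of -253 and -88.4 and a fold enrichment of 3.81 and 2.62. The third lay in the middle of the gene. It covered 271 and 211 bases, its fold enrichment was 11.4 in either list, and its log10 p was -32.1 and -23.9, with p-value ranks of 81.7 and 82.3. The fourth was the strongest control peak of the gene (chr17:46017832-46020991, 1049 bases, log10 p -606, fold 6.38), with 1048 bases in 1 block and 1 base in another. The *Wtap*-BKO peak on it covered 421 bases in 1 block (chr17:46018071-46018491, log10 p -100, fold 4.78). All *Wtap*-BKO bases of *Vegfa* (1353) lay inside the 2221 control bases. The p-value ranks of the 2 strongest peaks differed little, at 98.8 and 99.7 in control and 96.8 and 97.4 in *Wtap*-BKO mice.

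*Igf1* encodes insulin-like growth factor 1, which the liver supplies to the circulation and which stromal cells, macrophages and adipocytes also make locally. It had 3 *Wtap*-BKO peaks and no control peak (chr10:87858265-87937047, plus strand). The peaks covered 121, 270 and 181 bases, with log10 p of -4.63, -6.70 and -5.16 and fold enrichments of 6.26, 10.6 and 2.20. They stood in the lower part of the list, at p-value ranks of 28.2, 45.6 and 33.8. Only the middle one (chr10:87913734-87915500) had a false discovery rate under 1e-05.

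Macrophage, lymphocyte and skeletal muscle markers also had peaks that were listed in *Wtap*-BKO mice alone. Of the 10 macrophage markers, 6 had peaks in both genotypes and 3 in *Wtap*-BKO mice only (*Mrc1*, *Ctss* and *Ptprc*), and *Adgre1* had none. Of the 10 lymphocyte markers, 1 had peaks in both and 3 in *Wtap*-BKO mice only, and 6, among them *Cd3e* and *Ms4a1*, had none. Of the 8 skeletal muscle markers, 2 had peaks in both and 5 in *Wtap*-BKO mice only, and *Ckm* had none. None of the 8 fibroblast, 9 white adipocyte or 13 brown adipocyte markers had peaks in *Wtap*-BKO mice only, and 1 of the 8 endothelial markers did (*Emcn*). Over all gene symbols with a peak, 13.2% had peaks in *Wtap*-BKO mice only. The part of any of these cell types in the peaks of *Retn* and *Igf1* was not tested.

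*Metrnl* encodes meteorin-like, a secreted protein of fat and muscle linked to browning and to immune cells of adipose tissue. Its 2 control peaks were both found in *Wtap*-BKO mice (chr11:121702427-121717389, plus strand). The first (chr11:121702874-121708087, 360 bases in 2 blocks) had identical borders in both genotypes, with a log10 p of -32.3 and -67.3 and a fold enrichment of 21.0 and 9.98. The second (chr11:121715738-121716216, 479 bases) had a log10 p of -50.9 and a fold enrichment of 164 in control mice, where the highest of any peak was 268. Its *Wtap*-BKO counterpart of 539 bases (chr11:121715738-121716276) had a log10 p of -54.4 and a fold enrichment of 9.15. On *Metrnl* the measures parted in both pairs. Its p-value ranks were higher in *Wtap*-BKO mice (95.2 against 81.8, and 93.4 against 89.1) and its fold ranks lower (77.3 against 92.9, and 74.5 against the very top of the list). A further, weak *Wtap*-BKO peak of 120 bases lay 29 bases from the 5ʹ end, with a log10 p of -3.20, a fold enrichment of 2.28 and a p-value rank of 8.45, the lowest of the 37 peaks.

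*Angptl4* encodes angiopoietin-like 4, a secreted inhibitor of lipoprotein lipase that fasting and fatty acids induce. It had 3 peaks in each genotype, of which 2 overlapped (chr17:33774900-33781575, minus strand). The first peak began at the first base of the gene span in both genotypes (chr17:33781396-33781575 in control, chr17:33781456-33781575 in *Wtap*-BKO). It covered 180 and 120 bases, with a log10 p of -22.3 and -28.4 and a fold enrichment of 2.51 and 3.10. At the 3ʹ end, the control peak (chr17:33774885-33775512, 628 bases) had a log10 p of -1100 and a fold enrichment of 4.82. The *Wtap*-BKO peak on it (chr17:33775064-33775422, 359 bases) had a log10 p of -135 and a fold enrichment of 1.99. As on *Adipoq*, the fold rank was higher in *Wtap*-BKO mice at the 5ʹ end (29.6 against 10.9) and lower at the 3ʹ end (8.70 against 36.7). The remaining control peak (chr17:33781157-33781306, 150 bases, log10 p -14.7) had a fold enrichment of only 1.27, and the remaining *Wtap*-BKO peak (chr17:33779109-33780644, 150 bases in 2 blocks, log10 p -9.91) one of 1.62. These did not overlap.

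*Fgf21* (chr7:45613890-45615490), a hormone of liver and fat that is induced in brown fat by cold, and *Bmp8b* (chr4:123104308-123126094), a BMP family ligand made by brown adipocytes, had no peak in either genotype. No peak of another gene lay inside either gene. *Bmp8a*, the near-identical neighbour of *Bmp8b*, had none either, so a peak was not listed under the related symbol. Of all RefSeq protein-coding genes, 44.4% had a peak in either list, and the remaining genes include those with too few reads to call one.

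Position along the gene was a feature that several of these factors had in common. Peaks with an edge at most 50 bp from where the gene span starts numbered 3 of 16 in control mice (*Adipoq*, *Vegfa*, *Angptl4*) and 5 of 21 in *Wtap*-BKO mice (the same genes with *Retn* and *Metrnl*). Over all peaks placed on the RefSeq table, the shares were 4.54% in control and 6.46% in *Wtap*-BKO mice. At most 1000 bp from the 5ʹ end lay the centres of 5 control and 7 *Wtap*-BKO peaks, against 11.4% and 13.1% of all peaks in genes of at least 3000 bp. As near to the 3ʹ end lay 5 control and 5 *Wtap*-BKO peaks, against 21.7% and 19.3%. None of the 37 peaks overlapped one assigned to a different gene of that strand, as 2.83% of all control and 2.72% of all *Wtap*-BKO peaks did.

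The peaks were also strong for their lists. Median p-value ranks were 81.7 for the 16 control peaks and 82.3 for the 21 *Wtap*-BKO peaks, well above the middle of either list. Ranked above 90% of their list by p-value were 4 control peaks (9.99% over all peaks) and 7 *Wtap*-BKO peaks (9.98% over all). By fold enrichment they stood lower, with median fold ranks of 39.1 and 29.6. The p-value also depends on the number of reads on a transcript, which the lists do not give.

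In the 14 overlapping pairs, the *Wtap*-BKO peak ranked lower by p-value in 7, where 46.7% of all 13772 pairs did. It ranked lower by fold enrichment in 8 of 14, against 51.1% of all pairs, and covered fewer exonic bases in 10 of 14, against 50.8%. The median difference in p-value rank was 0.229 percentage points, and over all pairs it was 1.11. The ratio of the *Wtap*-BKO to the control fold enrichment had a median of 0.710 over the 14 pairs and of 0.783 over the 12483 control peaks found, so as a group these peaks stood near the middle of all pairs. Single pairs did not. The ratio was 0.0558 for the 3ʹ peak of *Metrnl*, lower than in all but 0.0561% of pairs, 0.254 for the middle peak of *Lep* and 0.323 for the 3ʹ peak of *Adipoq*. At the 5ʹ end it was 2.06 for *Vegfa*, higher than in 91.6% of pairs, 1.57 for *Adipoq* and 1.24 for *Angptl4*. These were the 3 highest of the 14. The low ratio on *Metrnl* went with a control fold enrichment of 164, and that pair ranked higher by p-value in *Wtap*-BKO mice (93.4 against 89.1).

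**Figure D2:**
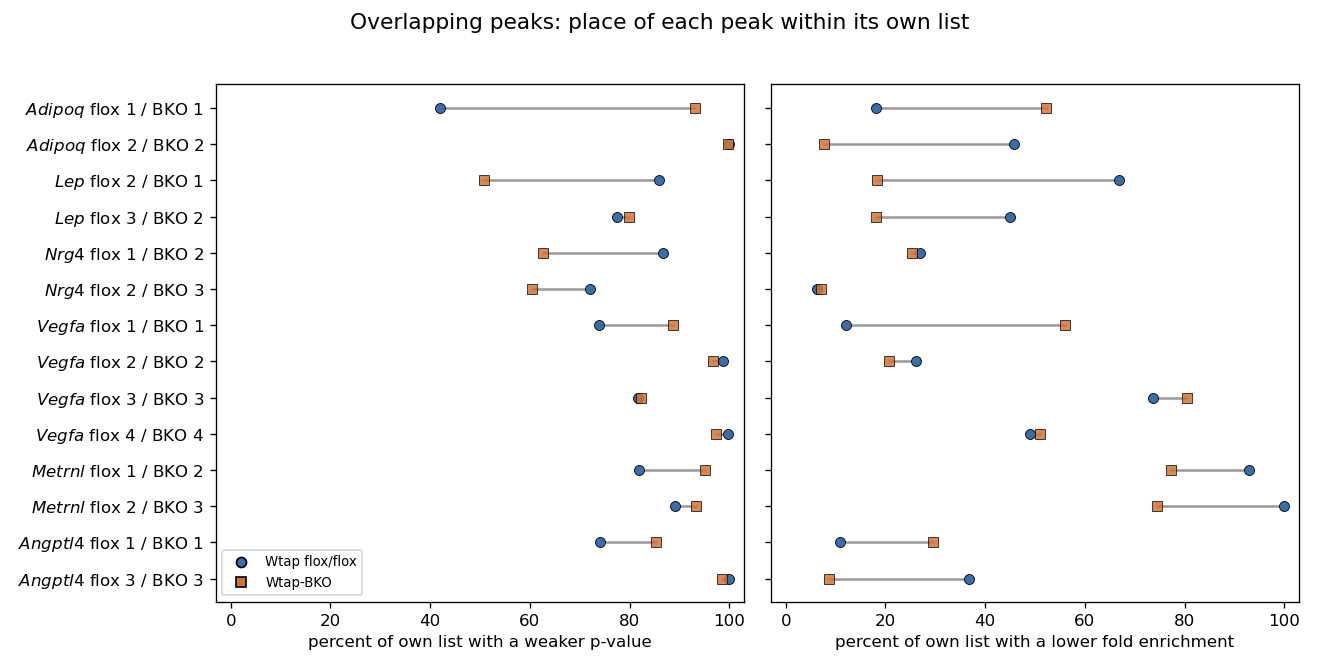
Each row is 1 of the 14 overlapping pairs, numbered from the 5ʹ end within each list. Blue circles (*Wtap* flox/flox) and orange squares (*Wtap*-BKO) show the percent of the peak's own list with a weaker p-value on the left and with a lower fold enrichment on the right. The first peaks of *Adipoq*, *Vegfa* and *Angptl4* have the orange square to the right in both panels, and the fold ranks of the 3ʹ peaks of *Adipoq*, *Lep*, *Metrnl* and *Angptl4* have it to the left.

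The ends of a transcript can be compared inside 1 genotype, where a constant factor on all its fold enrichments cancels. For the 6 genes with at least 2 overlapping pairs, the fold enrichment of the most 3ʹ pair was divided by that of the most 5ʹ pair. On *Adipoq* this ratio was 1.91 in control and 0.392 in *Wtap*-BKO mice, on *Vegfa* 2.44 and 0.888, and on *Angptl4* 1.92 and 0.642. On *Metrnl* it was 7.81 and 0.917. In these 4 genes the 3ʹ peak was the more enriched of the pair in control mice and the less enriched in *Wtap*-BKO mice. *Lep* (0.595 and 0.996) and *Nrg4* (0.549 and 0.664), whose pairs both lay toward the 3ʹ end, differed the other way. A lower ratio in *Wtap*-BKO mice was thus seen in 4 of 6, against 52.3% of 2841 genes, and the fall on *Metrnl*, *Adipoq*, *Angptl4* and *Vegfa* was larger than in all but 2.18%, 5.17%, 12.8% and 15.1% of those genes. Along the genome, with gaps between exonic blocks counted, the most 5ʹ control peak was centred 5481 bp into the gene on *Metrnl*. On *Adipoq*, *Vegfa* and *Angptl4* it was centred 88, 68 and 89 bp into the gene. The *Metrnl* peak began 447 bp from the 5ʹ end with a block of 2 bases, and its other 358 bases followed after a gap. Its distance along the transcript is therefore shorter. The control ratio of *Metrnl* rested on a fold enrichment of 164. On *Vegfa* the result depended on the weaker first peak. The second *Vegfa* peak, also near the 5ʹ end, had folds of 3.81 and 2.62, below those of the 3ʹ peak in both genotypes (6.38 and 4.78).

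**Figure D3:**
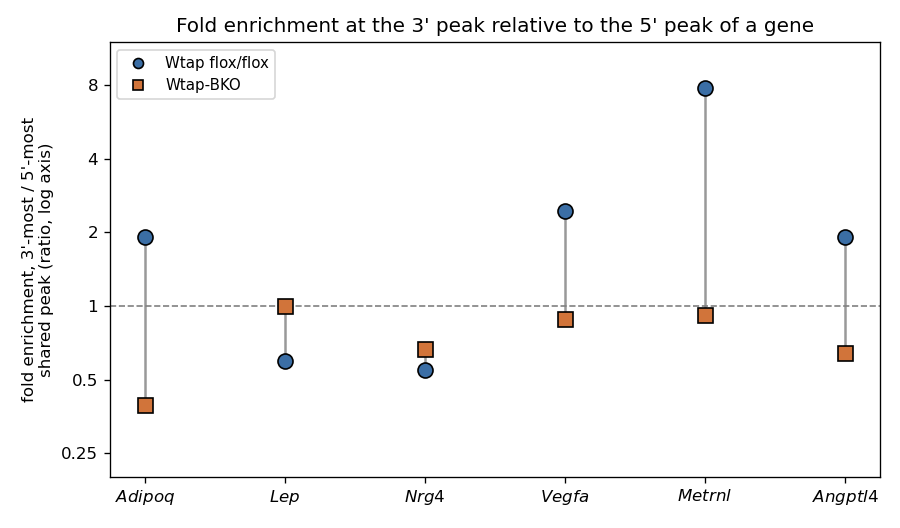
The vertical axis is the fold enrichment of the most 3ʹ overlapping peak divided by that of the most 5ʹ one on a log axis, for *Wtap* flox/flox (blue circles) and *Wtap*-BKO (orange squares), and the dashed line marks equal enrichment. *Adipoq*, *Vegfa*, *Metrnl* and *Angptl4* cross from above the line in control mice to below it in *Wtap*-BKO mice, and *Lep* and *Nrg4* stay below 1.

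Over the whole lists, the 5ʹ end stood apart more than the 3ʹ end. Of all pairs, 46.7% ranked lower by p-value in *Wtap*-BKO mice and 51.1% by fold enrichment. Among all pairs centred within 1000 bp of the 5ʹ end, 29.0% ranked lower by p-value in *Wtap*-BKO mice and 40.8% by fold enrichment. Within 1000 bp of the 3ʹ end the shares were 49.2% and 55.6%, slightly above those of all pairs. Of the secreted factors' pairs, 1 of 4 near the 5ʹ end (the second peak of *Vegfa*) and 4 of 5 near the 3ʹ end ranked lower by p-value in *Wtap*-BKO mice. Several of these differences were small, at -1.99 percentage points on *Vegfa*, -0.192 on *Adipoq* and -1.38 on *Angptl4*. The other pairs that ranked lower near the 3ʹ end were both on *Nrg4* (-24.1 and -11.7). By fold enrichment the counts were likewise 1 of 4 and 4 of 5.

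Exonic bases under the peaks of the 10 genes added up to 6433 in control and 5630 in *Wtap*-BKO mice. Of the 6 genes with peaks in both, 3 had fewer bases in *Wtap*-BKO mice (*Lep*, *Vegfa* and *Angptl4*), *Nrg4* and *Metrnl* had more, and *Adipoq* had equal numbers. Over all genes with peaks in both lists, 54.0% had fewer. The shared part was 59.1% of the bases at the median of the 6 genes, and ranged from 35.7% on *Lep* to 82.3% on *Metrnl*.

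**Figure D4:**
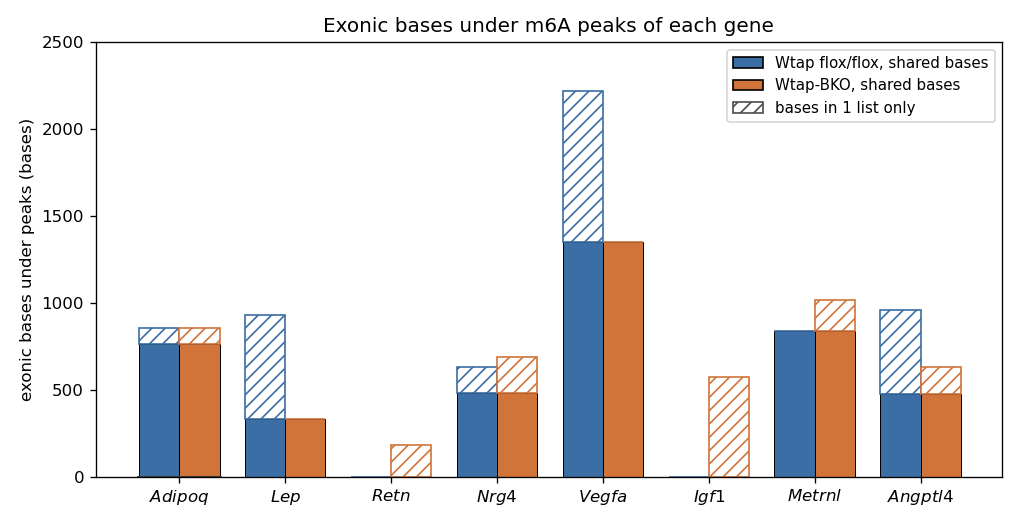
Bars give the exonic bases under all peaks of a gene in *Wtap* flox/flox (blue) and *Wtap*-BKO mice (orange), and the filled part is shared by both lists. The *Wtap*-BKO bars of *Lep* (332 of 931 bases) and *Vegfa* (1353 of 2221) are filled throughout, and *Retn* and *Igf1* have hatched *Wtap*-BKO bars alone.

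A wider list of 65 other secreted factors of adipose tissue was set beside the 10 genes. Of these, 50 had a peak, 36 in both genotypes, 4 in control mice only and 10 in *Wtap*-BKO mice only, with 69 control and 85 *Wtap*-BKO peaks. Over all gene symbols with a peak, 13.5% had peaks in control mice only and 13.2% in *Wtap*-BKO mice only. Not found in the other genotype were 16 control peaks of the wider list (23.2%, against 32.2% of all control peaks) and 33 *Wtap*-BKO peaks (38.8%, against 32.0%). In control mice only, with a false discovery rate under 1e-05, were *Fgf2*, a fibroblast growth factor (log10 p -39.3), and *Pm20d1*, an enzyme secreted by brown and beige fat (log10 p -39.1). *Apln* and *Metrn*, the paralogue of *Metrnl*, had weaker control peaks only (log10 p -2.75 and -3.56), and were named after their values were seen. Listed in *Wtap*-BKO mice only at this threshold were, among others, the cytokine genes *Ccl2* and *Cxcl14*, *Retnla*, a paralogue of *Retn* that alternatively activated macrophages make, *Igfbp4*, which binds insulin-like growth factors, *Nucb2*, which encodes the precursor of nesfatin-1, and *Angptl6*. The strongest peaks of these named genes had log10 p between -20.4 (*Retnla*) and -6.40 (*Ccl2*). Weaker peaks in *Wtap*-BKO mice only were on *Fndc5*, *Edn1* and *Igf2* (strongest log10 p -3.66, -5.32 and -5.03), likewise named after their values were seen. With macrophage, lymphocyte and muscle markers higher in number of peaks in the same mice, the part of those cells in these peaks was not tested.

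Where other secreted factors had peaks in both genotypes, their strongest peak most often had a higher p-value rank in *Wtap*-BKO mice. This was so for 32 of 36 genes, against 50.9% of 7409 genes, with a median difference of 12.6 percentage points. The strongest peak was taken in each list by p-value, so the peaks compared need not overlap. Fold ranks were not counted in this way. The 3 with the strongest control peaks were *Cfd*, the adipokine adipsin (log10 p -128 in control and -316 in *Wtap*-BKO), *C1qtnf9*, a paralogue of adiponectin (-118 and -163), and *Lpl*, the lipase that *Angptl4* inhibits (-117 and -557). All 3 had a stronger p-value in *Wtap*-BKO mice. Their fold enrichments went both ways. They were 3.51 in control and 5.62 in *Wtap*-BKO mice on *Cfd*, 7.9 and 6.27 on *C1qtnf9*, and 7.92 and 9.8 on *Lpl*. Of the 6 secreted factors with peaks in both genotypes, the strongest peak ranked higher in 1, *Metrnl*. There the strongest control peak was the second, and the strongest *Wtap*-BKO peak lay on the first. The median difference over the 6 was -1.83 percentage points. On *Adipoq*, *Vegfa* and *Angptl4* the control peak already ranked at 99.7 or above, so almost no higher rank was possible. On *Lep* and *Nrg4* the rank was 86.0 and 86.7 in control and 79.9 and 62.6 in *Wtap*-BKO mice. The *Lep* values come from different places. Its strongest *Wtap*-BKO peak lay on the third control peak, which ranked at 77.5, and not on the strongest one. Of the marker genes with peaks in both genotypes, the strongest peak ranked higher in *Wtap*-BKO mice in 7 of 7 fibroblast, 7 of 7 endothelial, 5 of 6 macrophage, 2 of 2 skeletal muscle, 1 of 1 lymphocyte and 4 of 5 white adipocyte markers, and in 5 of 12 brown adipocyte markers. The part of these cells in the count of 32 was not tested.

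Receptors and co-receptors of the 10 factors were described in the same way. Of 27 genes, 21 had a peak, 20 of them in both genotypes, with 58 control and 57 *Wtap*-BKO peaks. Over all gene symbols with a peak, 73.3% had peaks in both. *Erbb3*, which encodes a receptor of the neuregulin family, had 1 control peak (log10 p -5.68) and none in *Wtap*-BKO mice, and was named after its values were seen. The strongest control peaks were on *Adipor2*, an adiponectin receptor (log10 p -929 in control and -97.1 in *Wtap*-BKO mice), *Nrp1*, a VEGF co-receptor (-361 and -318), and *Kdr*, the main VEGF receptor of endothelial cells (-345 and -394). *Adipor2* had 5 control and 2 *Wtap*-BKO peaks. Its strongest peak in each list had a fold enrichment of 7.05 in control and 2.21 in *Wtap*-BKO mice. In 6 of the 20 receptor genes with peaks in both, the strongest peak had a higher p-value rank in *Wtap*-BKO mice, against 50.9% of 7409 genes. Not found in the other genotype were 17 control peaks (29.3%) and 17 *Wtap*-BKO peaks (29.8%), near the shares over all peaks.

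**Figure D5:**
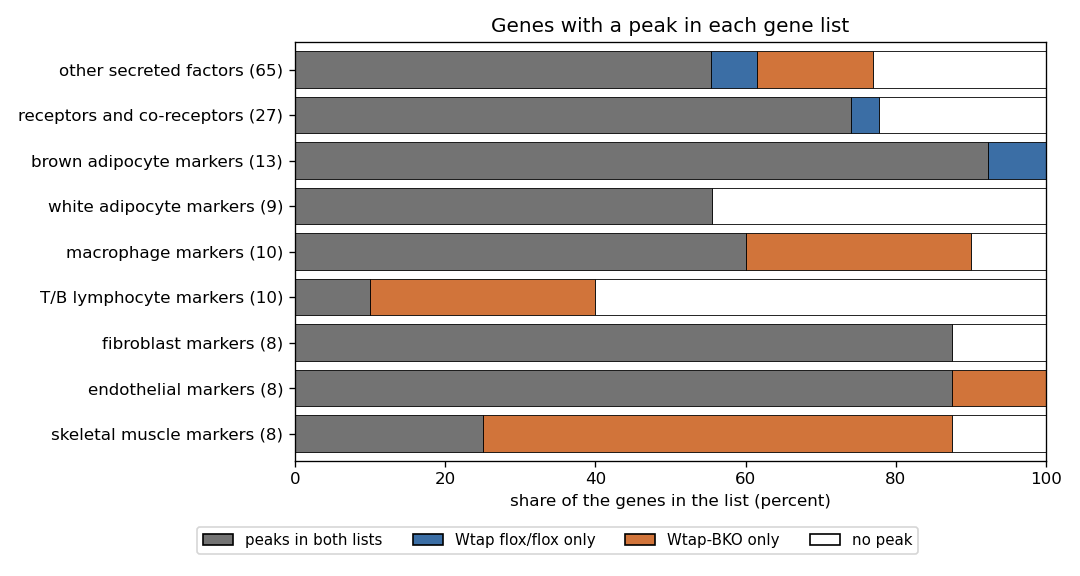
Bars give the share of each gene list, in percent of its genes (number in brackets), with peaks in both lists (grey), in *Wtap* flox/flox only (blue), in *Wtap*-BKO only (orange) or in neither (white). Of the 65 other secreted factors, 10 are orange and 4 blue, and of the 27 receptors and co-receptors 1 is blue and none is orange.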

How the data were processed

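The 2 peak lists deposited by the authors, 1 per genotype, were used, each called on 1 pooled IP against 1 pooled input. The submitters' processing notes name fastp 0.19.11, BWA 0.7.12, HOMER 4.9.1 and GRCm38. The methods name MACS2, while the layout with spliced blocks is that of exomePeak, and which caller made the lists could not be settled. The deposited columns hold the authors' p-value, scores that give the log10 p and the log10 false discovery rate, and the fold enrichment, a ratio of IP to input whose scaling is not described. The authors had kept peaks with a false discovery rate below 0.05. Peaks whose rate was written as 0 (147 in control and 83 in *Wtap*-BKO mice) were kept, and ranks used the log10 p. The p-value depends on read depth and transcript abundance, so ranks by it mix these with methylation.

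Counting and matching ran in Python 3.11.15 (numpy 2.4.6, scipy 1.17.1), and figures were made with matplotlib 3.10.9. Peak starts were converted from 0-based to 1-based positions, and gene spans came from a RefSeq table of GRCm38.p6, which gave no exons. On simulated data with a known answer for each of the 18400 control peaks, the matching was right for 100%. Wilson intervals (95%) treat peaks as independent. Named were all 10 genes, the genes of the 2 wider lists with peaks in 1 genotype only and a false discovery rate under 1e-05, and the 3 genes of each with the strongest control peak, except for 1 gene that is not reported here. The genes and lists were chosen with earlier results of these data known. The 50 bp window, the ratio of 3ʹ over 5ʹ peaks, the shares by position and the ranks of strongest peaks were added after values were seen.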

Additional observations from a re-analysis of the deposited data

How the results depend on the processing

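The counts of secreted factors with peaks, of their peaks, of the bases under them, of peaks found in the other genotype and of genes with a lower 3ʹ over 5ʹ ratio stayed within 1.5 times the reported value in all 22 recomputed values. The shares not found moved more. With at least 50% of the bases required, 25.0% of control peaks (all peaks: 40.7%) and 33.3% of *Wtap*-BKO peaks (37.5%) were not found. Where peaks of both lists had to reach 1e-05 in false discovery rate, these were 12.5% (33.8%) and 17.6%, 3 of 17 (28.1%). With this threshold on the searched peaks alone, the shares were again 12.5% and 17.6%, against 20.4% and 15.4% of all peaks. With any peak on the same gene they were 0 of 16 (11.8%) and 4 of 21 (11.1%). The ratio of 3ʹ over 5ʹ fold enrichment, an analysis added after the data were seen, was also recomputed. For pairs in which each peak shared 50% or more of its bases, it was lower in *Wtap*-BKO mice in 4 of 5 genes. The share over all 2063 genes with such pairs was 51.2%. Where both peaks of a pair had to reach 1e-05, the ratio was lower in 4 of 6 genes, against 53.6% of all 1522. Over genes with the same numbers of peaks as the secreted factors, the share of *Wtap*-BKO peaks not found was 30.8%. No paired analysis was possible because each genotype had 1 pooled IP and 1 pooled input, and for the same reason no replicate could be left out. Depth is unknown, which limits every statement on missing peaks.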
